A study of Danio rerio with 16 samples.

Results

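The microRNAs (miRNAs) described here are the numbered zebrafish miRNAs that were mostly first recorded in fish, namely miR-456, miR-459 to miR-461, miR-722 to miR-740 except miR-731, and miR-2184 to miR-2199, with any arm or version suffix. The rule uses their names in the scanner files and no measured value, although it was drawn up with earlier results of these data known, and 44 of the 248 miRNAs on the array fall under this rule, which leaves 204 others. Of the 44, 6 lie in the number range of miR-456 to miR-461, 20 in that of miR-722 to miR-740 and 18 in that of miR-2184 to miR-2199. Each had 60 spots per array, shared between 2 probes for 36 of them, 3 probes for 7 and 4 probes for 1. Whether a miRNA is found only in fish cannot be checked from these arrays, and some of the names, such as miR-460 and miR-2188, also belong to miRNAs of the chicken.

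Total RNA from livers of adult female zebrafish was labelled with Cy3 and hybridized to 16 custom arrays, 4 in each of 4 groups. The groups were Fasted/FLX (no food and 540 ng/L fluoxetine in the water), Fed/FLX (food and 540 ng/L fluoxetine), Fasted (no food, 0 ng/L) and Fed (food, 0 ng/L), all sampled after 7 days. The labels name no strain and no genetic change for any group. Fluoxetine (FLX) is a selective serotonin reuptake inhibitor. There were 4 tanks of 20 fish, 1 tank per group, so that group and tank cannot be told apart, and each sample pooled a pair of livers, so that the p-values measure the spread between pools from the same tank.

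A miRNA is a short RNA that is cut from a hairpin precursor, loaded into an Argonaute protein and guided by the seed near its 5′ end to messenger RNAs, which it represses. Most miRNA families of the liver, miR-122 above all, are shared by fish and mammals. The numbers treated here include lineage-restricted miRNAs, many hairpins that lie within protein coding genes, and entries that sequence databases have since tied to other classes of small RNA. For most of them no target is established in the liver, and the role of a member is given below only where it is known.

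Each of 2 slides carried 8 of the arrays, by the scan titles 2 from every group. Every FLX array occupied slide column 2 or 4 and every other array column 1 or 3, so that FLX and slide column cannot be told apart. Between 25.8% and 35.4% of miRNA spots were well above background per array, 64 to 92 miRNAs were detected per array, and no miRNA spot was saturated. A miRNA counts as detected on an array here if at least 50% of its spots passed the scanner software's test for being well above background. Of the markers of single tissues, the liver miRNA miR-122 was detected on all 16 arrays, the 4 muscle miRNAs, the 4 brain miRNAs and miR-430a of egg and embryo were detected on none, and miR-451 of red blood cells was detected on all 16. Detected on no array were miR-203a of epithelium, miR-142b-5p of white blood cells and miR-375 of pancreas. The white blood cell miRNA miR-142a-3p and the red blood cell miRNA miR-144 were each detected on 3 Fed/FLX arrays and on 4 of each other group. Of endothelium, miR-126a-3p was detected on 4 arrays of every group. The other arm, miR-126a-5p, was detected on 4 Fasted/FLX, 0 Fed/FLX, 3 Fasted and 0 Fed arrays. Also detected on all 16 were miR-205 and miR-200a of epithelium and miR-223 and miR-150 of white blood cells, and miR-216a and miR-217 of pancreas were detected on at least 2 arrays of every group. Of these, miR-205 moved with fluoxetine in fed fish, at 5.63 to 7.36 log2 units in Fed/FLX, against 7.94 to 8.55 in Fed (limma adjusted p = 0.00759), and it was 6.86 to 7.95 in Fasted/FLX and 7.40 to 8.01 in Fasted. Its part in the changes below was not tested. Fed/FLX replicate 1 read 11.54 log2 units in miR-122, where the other Fed/FLX arrays were at 12.32 to 12.33. Its unscaled total gene signal of miR-122 was 13326 scanner units, against 14312.6 to 17735.5 in Fed. Before scaling it was the dimmest array by the 75th percentile of detected miRNAs given below, though not by that of all miRNA spots. On it the member miR-739_v12.0 had the higher total gene signal (18038) and read 12.32 log2 units. The quantile normalization used here gives each rank the same value on every array, so the 11.54 does not measure the amount of miR-122 alone. Results that rest on this array are also given without it. Before scaling, the 75th percentile of the background-corrected spot signals of the 49 miRNAs detected on all arrays ranged over 476 to 559 scanner units in Fasted/FLX and 278 to 470 in Fed/FLX, against 391 to 446 in Fasted and 300.1 to 363 in Fed.

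Most of the 44 members were at background in the liver. On no array were 37 of them detected (84.1%), and 36 of these 37 had 0 spots well above background on every array. Among the 204 other miRNAs, 103 were detected on no array (50.5%). The undetected members were, from the first number range, both arms of miR-459 and miR-460 and miR-461. From the second range they were miR-722, both arms of miR-723, miR-724, miR-725, miR-726, both arms of miR-727, miR-728, miR-729, miR-730, miR-732, miR-733, miR-734, miR-735, miR-736, miR-737 and miR-740. From the third range they were both arms of miR-2185, miR-2186, both arms of miR-2187, miR-2188-3p, miR-2191, miR-2192, miR-2193, miR-2194, miR-2195, miR-2196, miR-2197 and miR-2198. The values of these 37 after normalization lay between 0.81 and 3.93 log2 units (median 1.87), while the lowest value of any detected miRNA on an array was 3.40 to 4.45. Those values are not ranked here, and no fold is given between groups that were both below background.

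The other 7 members were detected on at least 1 array. On all 16 arrays miR-2190, miR-738 and miR-739_v12.0 were detected (6.82% of the members), against 46 of the 204 other miRNAs (22.5%). The miRNA miR-456 was detected on 14 arrays, miR-2188-5p on 13, miR-2184 on 5 and miR-2189 on 1. By number range, 1 of 6 members from miR-456 to miR-461, 2 of 20 from miR-722 to miR-740 and 4 of 18 from miR-2184 to miR-2199 were detected on any array. The name miR-739_v12.0 is given as the files have it and is the only member with a version suffix.

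The number of members detected per array was 4, 6, 6 and 6 in Fasted/FLX, 5, 4, 5 and 4 in Fed/FLX, 6, 6, 5 and 5 in Fasted, and 5, 3, 5 and 6 in Fed. The means were 5.5 ± 1 in Fasted/FLX, 4.5 ± 0.58 in Fed/FLX, 5.5 ± 0.58 in Fasted and 4.75 ± 1.3 in Fed (SD, n = 4 each). The groups overlapped in each of the 5 pairwise comparisons, and the exact two-sided permutation p was between 0.229 and 1, with all 5 adjusted values at 1, where 4 arrays against 4 cannot go below 0.0286. A difference in the number of detected members was therefore not shown at this size.

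**Figure D1:**
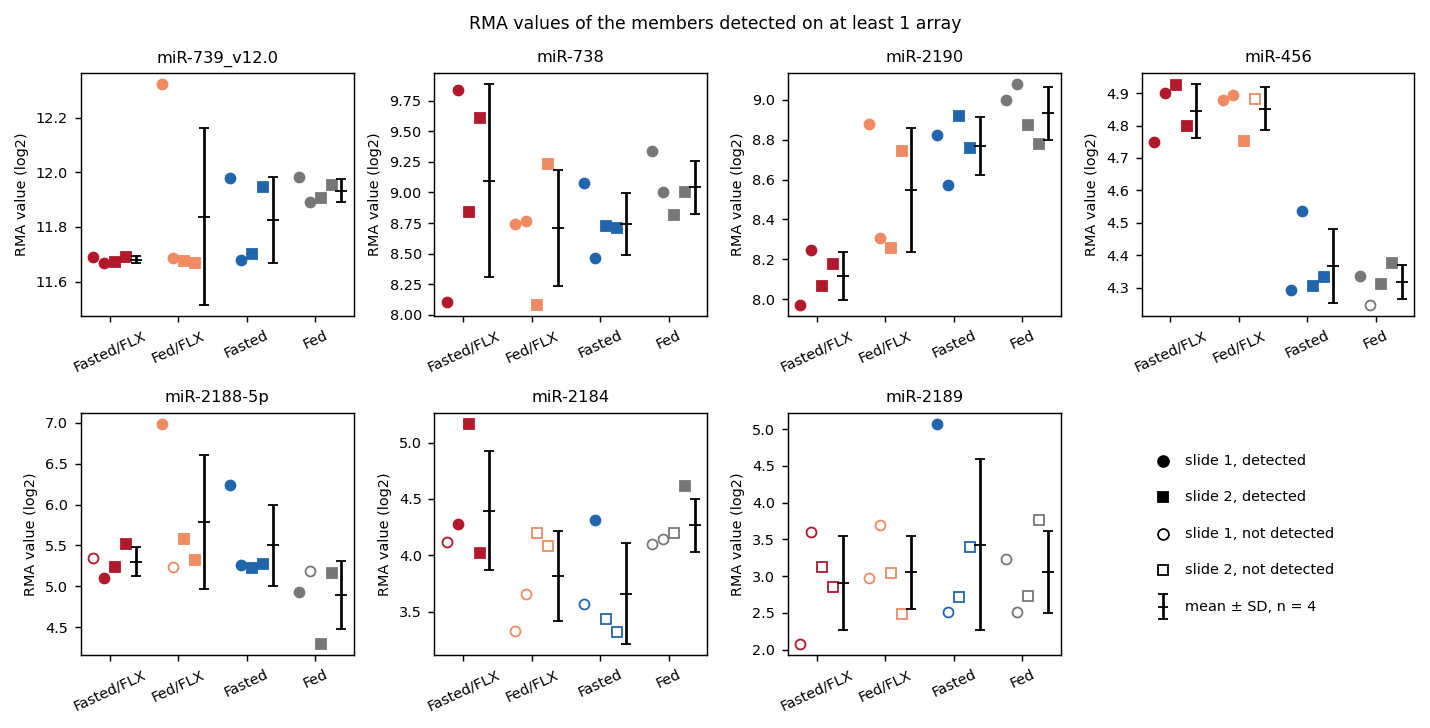
Normalized (RMA) values in log2 units, 1 point per array, of the 7 members detected on at least 1 array, by group, with the mean ± SD of the 4 arrays at the right of each group; circles are slide 1, squares slide 2, and open points are arrays on which the miRNA was not detected. For miR-456 all FLX arrays (4.75 to 4.93) lie above all other arrays (4.25 to 4.54), and for miR-2190 the Fasted/FLX arrays (7.97 to 8.24) lie below all Fasted and Fed arrays.

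The groups were compared on these RMA values, a background-corrected, quantile-normalized and spot-combined log2 measure, with limma over all 248 miRNAs, p-values were adjusted by Benjamini-Hochberg separately for each comparison, and a member was called at an adjusted p under 0.05. Fluoxetine went with a rise of miR-456 in both feeding states, and miR-2190 fell in Fasted/FLX against both groups without the drug. In Fasted/FLX against Fed 2 of 44 members were called, miR-456 higher and miR-2190 lower, where 4.84% of all miRNAs tested were called (4.03% higher and 0.806% lower). Unadjusted, 4 members and 16.1% of all miRNAs had a p under 0.05. The same 2 members were called in the same directions in Fasted/FLX against Fasted, where 6.45% of all were called (2.82% higher and 3.63% lower; 4 members and 16.9% of all unadjusted). In Fed/FLX against Fed 2 members were called, miR-456 and the undetected miR-2188-3p, both higher, where 12.9% of all were called (8.87% higher and 4.03% lower; 6 members and 23.4% of all unadjusted). In Fasted against Fed limma called 0 members and 0% of all miRNAs, with 4 members and 11.7% of all miRNAs at an unadjusted p under 0.05. Between Fasted/FLX and Fed/FLX limma called 0 members and 1.61% of all miRNAs (4 members and 11.7% unadjusted), and for the interaction of FLX and fasting likewise 0 members and 1.61% (5 members and 12.9% unadjusted). The comparisons with Fed share the Fed arrays and those of Fasted/FLX share its own arrays, so that these results are not independent of each other.

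The median log2 difference of the 44 members was -0.01 in Fasted/FLX against Fed, against 0.01 over all 248 miRNAs. It was -0.001 in Fed/FLX against Fed (0.01 over all), 0.004 in Fasted against Fed (-0.001 over all), -0.07 in Fasted/FLX against Fasted (-0.004 over all) and -0.07 in Fasted/FLX against Fed/FLX (-0.01 over all). Since 37 of the 44 were never detected, these medians mostly describe background. No member reached 2-fold together with an adjusted p under 0.05 in any of the 6 comparisons. Groups of 4 arrays did not overlap for 5 members in Fasted/FLX against Fed (16.5% of all miRNAs), 3 in Fed/FLX against Fed (12.1%), 4 in Fasted against Fed (8.47%), 5 in Fasted/FLX against Fasted (12.9%) and 2 in Fasted/FLX against Fed/FLX (5.24%).

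**Figure D2:**
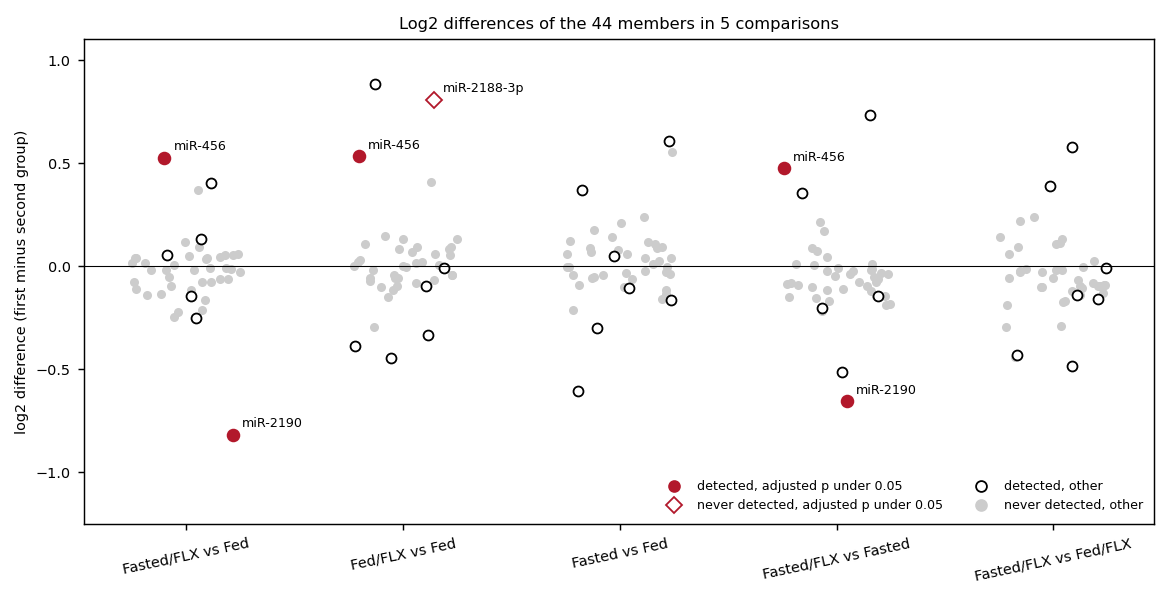
Log2 difference of RMA values (first group minus second) for each of the 44 members in 5 comparisons, with never detected members as grey points, detected members as open black points, and members with an adjusted p under 0.05 in red (filled where detected on at least 1 array, open diamond where never detected). Only miR-456 and miR-2190 among the detected members are red, and the never detected members are spread about 0.

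The value of miR-456 was higher in every array with fluoxetine. Its RMA value was 4.75, 4.90, 4.93 and 4.80 log2 units in Fasted/FLX (replicates 1 to 4), and 4.88, 4.89, 4.75 and 4.88 in Fed/FLX. It was 4.29, 4.54, 4.30 and 4.33 in Fasted, and 4.34, 4.25, 4.31 and 4.37 in Fed. The 8 FLX arrays all lay above the 8 arrays without the drug, a comparison that was looked at after the values had been seen and that holds in either direction for 4 of the 248 miRNAs (1.61%), of which miR-456 is the only member. Here as in any bulk sample, fewer cells of a type and less RNA per cell cannot be told apart.

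The rise of miR-456 was about 1.4-fold. In Fed/FLX against Fed the log2 difference was 0.53 (SE 0.07, limma adjusted p = 0.000291), or 1.45-fold. It was 0.53 in Fasted/FLX against Fed (SE 0.07, limma adjusted p = 0.000343), and in Fasted/FLX against Fasted it was 0.48 (SE 0.07, limma adjusted p = 0.00085). Neither fasting alone nor fasting under the drug moved it past the threshold, with 0.05 in Fasted against Fed (limma adjusted p = 0.823) and -0.01 in Fasted/FLX against Fed/FLX (limma adjusted p = 0.964). The interaction of FLX and fasting was -0.06 (SE 0.09, limma adjusted p = 0.847). Within slide 1 and slide 2 the difference was 0.60 and 0.47 in Fed/FLX against Fed, 0.53 and 0.52 in Fasted/FLX against Fed, and 0.41 and 0.54 in Fasted/FLX against Fasted. With any 1 array of the compared groups left out all 3 calls held, with log2 differences between 0.45 and 0.57, and without Fed/FLX replicate 1 the difference from Fed was 0.53 (limma adjusted p = 0.00149).

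The signal of miR-456 came mainly from 1 of its 2 probes, each with 30 spots. On that probe at least 96.6% of spots were well above background on all 16 arrays, while on the other at least 50% of spots were so on 0 arrays, which places the miRNA near the 50% limit of detection, at 48.3% to 70.0% of spots per array. It was detected on 4 arrays of Fasted/FLX, 3 of Fed/FLX, 4 of Fasted and 3 of Fed. Before any scaling between arrays the median spot signal of the detected probe was 43.0 to 59.0 scanner units in Fasted/FLX and 27.3 to 44.3 in Fed/FLX, against 21.9 to 30.1 in Fasted and 16.2 to 21.9 in Fed. The other probe read 10.7 to 13.0 in Fasted/FLX and 7.02 to 11.3 in Fed/FLX, against 5.61 to 9.27 in Fasted and 2.71 to 5.97 in Fed. On both probes each FLX group lay above Fed without overlap. The unscaled signal also follows the brightness of an array, which by the 75th percentile of detected miRNAs was greatest in Fasted/FLX. The fold depended on how background was taken off. An offset of 50 added after background correction reduced the log2 difference to 0.17 in Fed/FLX against Fed and 0.17 in Fasted/FLX against Fed, both still called, and the software's total gene signal scaled to a common percentile gave 0.80 and 0.78. Scaling the spots to a common 75th percentile of detected miRNAs gave 0.47 (limma adjusted p = 0.0397) and 0.28 (limma adjusted p = 0.048).

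**Figure D3:**
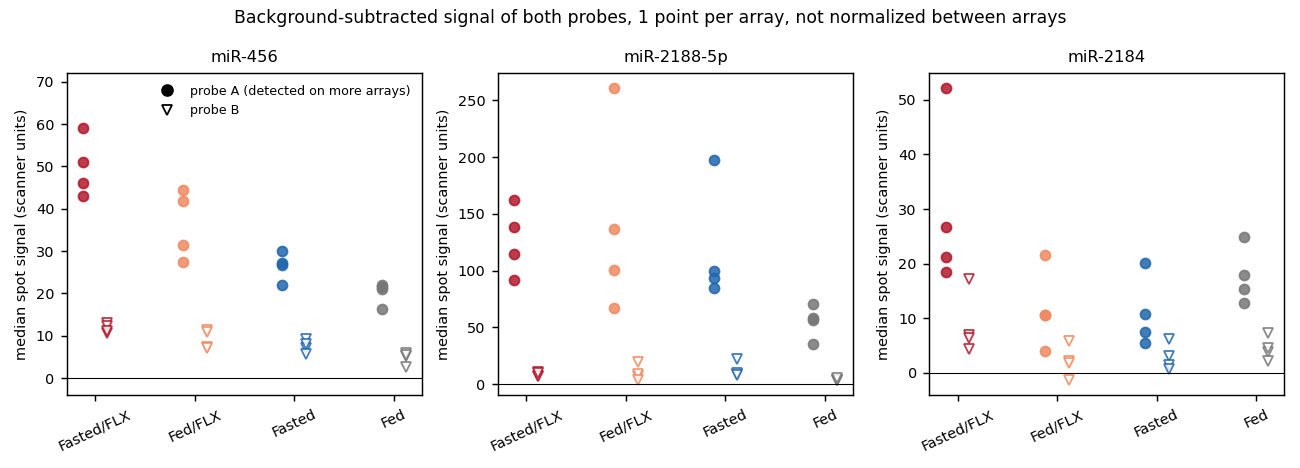
Median background-subtracted signal of the 30 spots of each probe in scanner units, 1 point per array and not normalized between arrays, for miR-456, miR-2188-5p and miR-2184; filled circles are the probe detected on more arrays (probe A) and open triangles the other (probe B). For miR-456 probe A read 43.0 to 59.0 in Fasted/FLX and 16.2 to 21.9 in Fed, and probe B stayed between 2.71 and 13.0 over all arrays.

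Over the 16 arrays the miRNAs most like miR-456, among those detected on all arrays, were let-7f (Pearson's r = 0.867) and let-7g (r = 0.848). Both belong to the let-7 family, a conserved family known for its part in developmental timing and cell differentiation. The RMA value of let-7f was 8.60 to 8.80 in Fasted/FLX and 8.62 to 8.80 in Fed/FLX, against 8.33 to 8.71 in Fasted and 8.34 to 8.41 in Fed, and it overlapped between the FLX and the Fasted arrays. That of let-7g was 7.92 to 8.32 in Fasted/FLX and 7.99 to 8.30 in Fed/FLX, against 7.72 to 8.05 in Fasted and 7.51 to 7.61 in Fed. Both were also called higher in the FLX groups against Fed. The log2 difference of let-7g was 0.46 in Fasted/FLX (limma adjusted p = 0.0231) and 0.64 in Fed/FLX (limma adjusted p = 0.00244), and that of let-7f was 0.29 in Fasted/FLX (limma adjusted p = 0.0472) and 0.31 in Fed/FLX (limma adjusted p = 0.0213). Against Fasted neither was called in Fasted/FLX (limma adjusted p = 0.297 for let-7g and 0.229 for let-7f). In RefSeq the hairpin of miR-456 lies within ttc27, a gene for a tetratricopeptide repeat protein.

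The value of miR-2190 was lowest in the fasted fish given fluoxetine. Its RMA value was 7.97, 8.24, 8.07 and 8.17 log2 units in Fasted/FLX and 8.88, 8.31, 8.25 and 8.74 in Fed/FLX, against 8.82, 8.57, 8.92 and 8.76 in Fasted and 8.998, 9.08, 8.87 and 8.78 in Fed. No Fasted/FLX array overlapped any array of another group, by a narrow margin against the lowest Fed/FLX array, while replicates 1 and 4 of Fed/FLX lay among the Fasted arrays. In order of the means the groups were Fasted/FLX (8.11 ± 0.12), Fed/FLX (8.55 ± 0.31), Fasted (8.77 ± 0.15) and Fed (8.93 ± 0.13; SD, n = 4 each). Neighbours in this order were not shown to differ, with 0.144 as the limma adjusted p between Fasted/FLX and Fed/FLX and 0.695 between Fasted and Fed, and Fed/FLX was not tested against Fasted. The methods' Tukey test, with no adjustment across miRNAs and no minimum fold, gave 0.0365 between Fasted/FLX and Fed/FLX.

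The log2 difference of miR-2190 in Fasted/FLX against Fed was -0.82 (SE 0.13, limma adjusted p = 0.00161), a level of 0.567 times that of Fed. It was -0.93 within slide 1 and -0.71 within slide 2, and was called with any 1 array of these groups left out (-0.87 to -0.77). Against Fasted it was -0.65 in Fasted/FLX (SE 0.13, limma adjusted p = 0.0155), and this call was lost without Fasted replicate 1 (adjusted p = 0.0588) and without Fasted/FLX replicate 1 (adjusted p = 0.0564). The difference of -0.39 in Fed/FLX against Fed (SE 0.13, limma adjusted p = 0.0728) and that of -0.43 in Fasted/FLX against Fed/FLX (SE 0.13) did not pass. The first passed without Fed/FLX replicate 1 (-0.50, adjusted p = 0.0283), without Fed/FLX replicate 4 (-0.45, adjusted p = 0.0471) and when the test was limited to miRNAs found on every array of some group (adjusted p = 0.0405). The second passed without Fed/FLX replicate 3 (-0.53, adjusted p = 0.0459). Other refits went the other way. Without Fed/FLX replicate 3 the first was -0.29 (limma adjusted p = 0.202). Without Fed/FLX replicate 1 the second was -0.32 (limma adjusted p = 0.42).

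Both probes of miR-2190 had all spots well above background on all 16 arrays. The unscaled signal gave another order of the groups than the RMA values. The software's total gene signal of miR-2190 was 1491, 1534, 1349 and 1350 scanner units in Fasted/FLX and 1397, 1379, 1249 and 1239 in Fed/FLX, against 2034, 1572, 2101 and 1622 in Fasted and 1613, 1637, 1662 and 1451 in Fed. Unscaled, Fed/FLX was thus the lowest group by its mean and Fasted/FLX overlapped Fed. The Fasted/FLX arrays were the brightest before scaling, as given above, and all 3 other scalings of the arrays kept the difference from Fed at -0.61 to -0.96 with an adjusted p of 0.0064 or less. Its most similar miRNAs over the arrays were miR-739_v12.0, another member (r = 0.636), and miR-30d (r = 0.631). RefSeq lists no gene by the name of miR-2190.

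The signal of miR-739_v12.0 depended on the scaling. In RMA values it stood at 11.69, 11.67, 11.67 and 11.69 log2 units in Fasted/FLX, and at 12.32, 11.69, 11.67 and 11.67 in Fed/FLX. It was 11.98, 11.68, 11.70 and 11.95 in Fasted and 11.98, 11.89, 11.90 and 11.95 in Fed. Seen by array, 7 of the 8 FLX values lay within 11.67 to 11.69 while Fed/FLX replicate 1 was the highest of all. Quantile normalization gives each rank the same value on every array, so near-equal values here need not mean equal signal. On these 7 arrays the unscaled total gene signal ran from 10117 to 11778 scanner units, below that of miR-122. On Fed/FLX replicate 1 it was 18038, above that of miR-122. It was also slightly above miR-122 on Fed replicate 1 (14368 against 14326) and Fed replicate 2 (14421 against 14313). On those arrays its RMA value was below that of miR-122 (11.98 against 12.04 and 11.89 against 12.03). The differences were -0.25 in Fasted/FLX against Fed (SE 0.12, limma adjusted p = 0.325), -0.15 in Fasted/FLX against Fasted (adjusted p = 0.618) and -0.10 in Fed/FLX against Fed (adjusted p = 0.782), and none was called. Without Fed/FLX replicate 1 the last was -0.26 (limma adjusted p = 0.0503).

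Unscaled, the total gene signal of miR-739_v12.0 was 10117 to 11296 scanner units in Fasted/FLX. It was 18038, 11113, 11778 and 11280 in Fed/FLX, 13611 to 18714 in Fasted and 12832 to 15126 in Fed. All Fasted/FLX arrays thus lay below all Fasted and all Fed arrays, although they were the brightest by the 75th percentile of detected miRNAs. Scaled to a common 75th percentile of detected miRNAs, the log2 difference in Fasted/FLX against Fed was -1.01 (limma adjusted p = 0.00372), scaled over all miRNAs it was -0.86 (adjusted p = 0.00601), and for the total gene signal it was -1.21 (adjusted p = 0.00933). The same settings gave -0.90 (adjusted p = 0.0294), -0.90 (adjusted p = 0.0126) and -1.06 (adjusted p = 0.0181) in Fasted/FLX against Fasted. With these 2 groups alone in the fit, the RMA difference of -0.25 in Fasted/FLX against Fed had an adjusted p of 0.0275. A call on this miRNA is therefore not given here, and the direction was negative in each of these settings. RefSeq lists no gene by the name of miR-739, and the miRNAs most like it were miR-30d (r = 0.815) and miR-145 (r = 0.788).

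**Figure D4:**
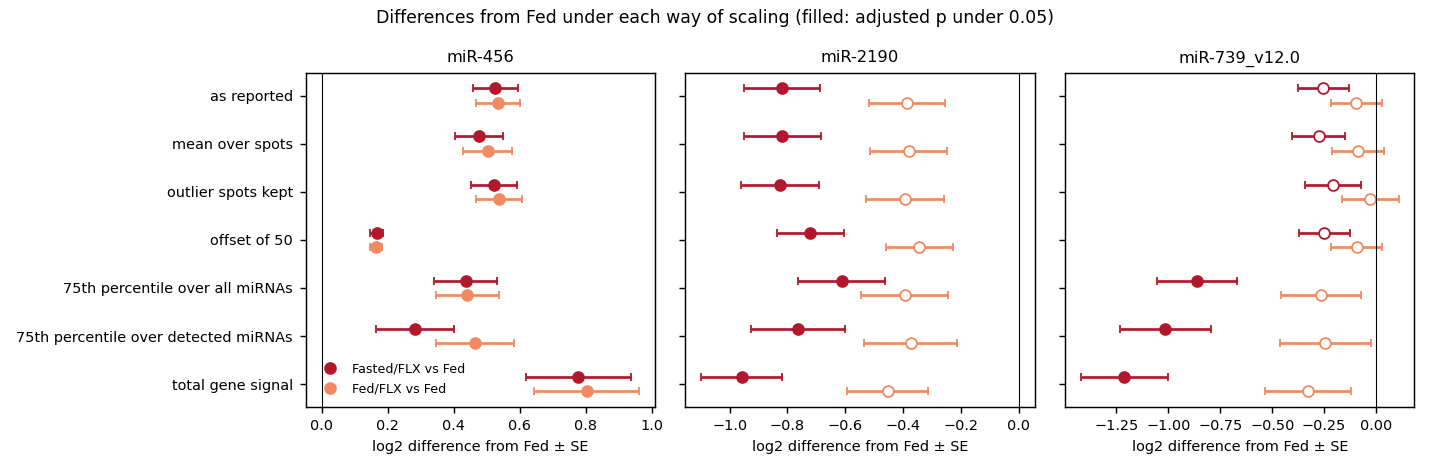
Log2 difference from Fed ± SE of miR-456, miR-2190 and miR-739_v12.0 in Fasted/FLX and Fed/FLX under 7 ways of computing and scaling the values; filled points have an adjusted p under 0.05. The miR-456 points are all above 0 and the Fasted/FLX points of miR-2190 all below 0, while miR-739_v12.0 in Fasted/FLX runs between -0.21 and -1.21.

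No call was made for miR-738, whose values spread widely among replicates with fluoxetine. Its RMA value was 8.10, 9.84, 8.84 and 9.60 log2 units in Fasted/FLX and 8.74, 8.76, 8.08 and 9.24 in Fed/FLX. It was 9.07, 8.46, 8.72 and 8.71 in Fasted and 9.34, 9.01, 8.82 and 9.01 in Fed. The SD was 0.79 in Fasted/FLX and 0.47 in Fed/FLX, against 0.25 in Fasted and 0.22 in Fed, and all groups overlapped. The log2 differences were 0.05 in Fasted/FLX against Fed, -0.34 in Fed/FLX against Fed, -0.30 in Fasted against Fed, 0.35 in Fasted/FLX against Fasted and 0.39 in Fasted/FLX against Fed/FLX, each with an SE of 0.32 and a limma adjusted p of at least 0.584. Its total gene signal was 1959, 4690, 2655 and 3909 scanner units in Fasted/FLX, and between 1186 and 2724 on the other 12 arrays. In Fasted/FLX the SD between pools of the same tank was thus larger than any of these differences. The most similar miRNA, miR-150, had an r of only 0.423.

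The 5p arm of miR-2188 was most like miR-451, a miRNA of red blood cells. In RefSeq its hairpin lies within ank1a, and in mammals ankyrin 1 ties the membrane skeleton of the red cell to the membrane. The RMA value of miR-2188-5p was 5.35, 5.10, 5.24 and 5.51 log2 units in Fasted/FLX and 6.99, 5.24, 5.58 and 5.32 in Fed/FLX. It was 6.24, 5.26, 5.23 and 5.27 in Fasted and 4.93, 5.19, 4.30 and 5.17 in Fed. Both Fed/FLX and Fasted lay wholly above Fed, each with replicate 1 far above the rest. Fed/FLX replicate 1 is also the array with the miR-122 value of 11.54 described above.

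In Fed/FLX against Fed the log2 difference of miR-2188-5p was 0.89 (SE 0.34, limma adjusted p = 0.112), and without Fed/FLX replicate 1 it was 0.48 (adjusted p = 0.287). In Fasted against Fed it was 0.61 (SE 0.34, limma adjusted p = 0.498) and in Fasted/FLX against Fed 0.40 (adjusted p = 0.61), and none was called. The interaction of FLX and fasting was -1.09 (SE 0.49, limma adjusted p = 0.351). As with miR-456, the signal came mainly from 1 probe, which had 100% of spots well above background on all 16 arrays, while the other reached 50% of spots on 2 arrays, Fed/FLX replicate 1 and Fasted replicate 1. The detected probe read 91.5 to 162 scanner units in Fasted/FLX and 67.4 to 261 in Fed/FLX, against 84.9 to 197 in Fasted and 35.6 to 70.5 in Fed.

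Among the miRNAs detected on all arrays, miR-451 was the most like miR-2188-5p (r = 0.888 over 16 arrays) and miR-92a the next (r = 0.805). The first is processed by Argonaute in maturing red cells, where it is abundant. Within slide 1 the r with miR-451 was 0.903 and within slide 2 it was 0.955 (8 arrays each), it was 0.868 without the 2 arrays of highest miR-2188-5p, and 0.832 for deviations from the group means, all as descriptions over arrays that share the normalization. The RMA value of miR-451 was 8.97 to 9.59 in Fasted/FLX and 9.21 to 10.4 in Fed/FLX, against 9.38 to 9.95 in Fasted and 8.13 to 9.41 in Fed. The summed level of the red blood cell list (miR-451 and miR-144, 2 of 2 measured) was 9.06 to 9.74 log2 units in Fasted/FLX and 9.26 to 10.5 in Fed/FLX, against 9.52 to 10.1 in Fasted and 8.28 to 9.52 in Fed. This sum is mostly miR-451. The second marker, miR-144, had another order of groups than miR-2188-5p, with means of 5.53 in Fasted/FLX, 5.52 in Fed/FLX, 6.37 in Fasted and 5.82 in Fed, and its r with miR-2188-5p was 0.521 over 16 arrays and 0.773 for deviations from the group means. The part of blood in the levels of miR-2188-5p was not tested.

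**Figure D5:**
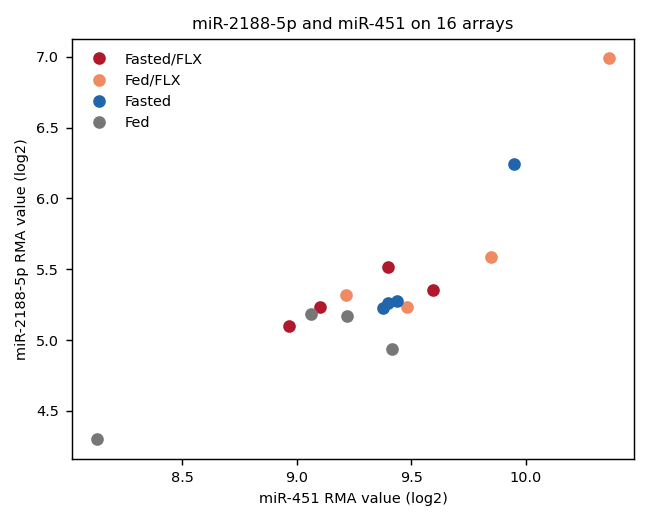
RMA value of miR-2188-5p against that of miR-451, a red blood cell miRNA, in log2 units, 1 point per array, colored by group. The arrays of highest miR-2188-5p, Fed/FLX replicate 1 (6.99) and Fasted replicate 1 (6.24), also have the highest miR-451, and Fed replicate 3 (4.30) has the lowest.

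The 3p arm of miR-2188 was detected on no array and had no spot well above background. Its RMA value was 2.55 to 2.71 in Fasted/FLX and 2.70 to 3.93 in Fed/FLX, against 2.41 to 3.35 in Fasted and 1.85 to 2.48 in Fed, and its limma adjusted p in Fed/FLX against Fed was 0.0483. No fold is given for it since both groups were below background. The call was lost without any 1 of the 4 Fed arrays and without Fed/FLX replicate 1 or 3 (adjusted p between 0.0551 and 0.138), and the software's total gene signal was at its floor of 0.1 on all 16 arrays. Its values followed those of the 5p arm over the arrays (r = 0.958).

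Detection of miR-2184 by the 50% rule was uneven across groups, with several arrays close to the limit. It was detected on 3 arrays of Fasted/FLX and 0 of Fed/FLX, 1 of Fasted and 1 of Fed. Apart from Fasted/FLX replicate 3, the detected arrays had 50% to 50.8% of spots well above background. Fasted/FLX replicate 1 (49.2%) and Fed/FLX replicate 3 (47.3%) fell short. At least 50% of spots passed on 9 arrays for 1 probe and on 1 array for the other. The software marked miR-2184 as detected on 4 arrays of Fasted/FLX, 3 of Fed/FLX, 2 of Fasted and 4 of Fed. Its RMA value was 4.12, 4.27, 5.17 and 4.02 log2 units in Fasted/FLX and 3.33, 3.66, 4.20 and 4.08 in Fed/FLX. It was 3.57, 4.31, 3.44 and 3.32 in Fasted and 4.10, 4.15, 4.20 and 4.61 in Fed. All groups overlapped, and Fasted/FLX replicate 3 stood above the rest, with 98.3% of spots well above background where the highest of the other arrays had 50.8%.

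In Fasted/FLX the mean of miR-2184 was at least 1.17-fold that of Fed/FLX, a lower bound because Fed/FLX had no array with detection, so that the lowest level of any detected miRNA, or the value of miR-2184 where higher, stood for it. The fitted difference was not called (0.58, limma adjusted p = 0.406), and without Fasted/FLX replicate 3 it was 0.32 (adjusted p = 0.598) and the bound was under 1. In Fed/FLX against Fed the log2 difference was -0.45 (limma adjusted p = 0.394), and no fold is given since 3 of the 4 Fed arrays were also without detection. The log2 difference in Fasted/FLX against Fasted was 0.74 (SE 0.27, limma adjusted p = 0.17), which passed without Fasted replicate 2 (0.95, adjusted p = 0.0454) and was 0.48 without Fasted/FLX replicate 3 (adjusted p = 0.377). In Fasted against Fed it was -0.61 (SE 0.27, limma adjusted p = 0.39), and in Fasted/FLX against Fed it was 0.13 (adjusted p = 0.841), or -0.13 without Fasted/FLX replicate 3. The interaction of FLX and fasting was 1.18 (SE 0.38, limma unadjusted p = 0.00782, adjusted p = 0.229), the largest of any member and not past the threshold. RefSeq lists no gene by the name of miR-2184.

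Detection of miR-2189 was limited to Fasted replicate 1. On that array its RMA value was 5.07, its total gene signal 137 scanner units, and 98.2% of its spots, on both probes, were well above background. On the other 15 arrays the RMA value was between 2.08 and 3.77, with at most 27.6% of spots well above background, although the software marked it as detected on 3 of these 15, 1 each in Fasted/FLX, Fed/FLX and Fed. The same liver pool had the second highest miR-2188-5p. The bound on the fold of Fasted over Fed or over Fasted/FLX was under 1, and no fold is given.

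Among the members at background, several hairpins lie in RefSeq genes whose products are known elsewhere. Of the 37 hairpin names behind the 44 members, 34 have a RefSeq gene of that name and 3 (miR-2184, miR-2190 and miR-739) have none, although 2 of these 3 were detected on every array. The hairpin of miR-722 lies within gcgrb, a receptor for glucagon, the hormone that raises blood glucose in fasting, and that of miR-736 within myh7, a myosin heavy chain of muscle. The hairpin of miR-459 lies within runx1, a transcription factor of blood formation. The hairpins of miR-727 and miR-728 lie within 10 kb of each other in tmtopsb, an opsin gene, and miR-2192 lies in pvalb3, a parvalbumin. RefSeq also gives the name vtrna4, a vault RNA, to miR-733, and lists miR-735 under rny2, a Y RNA. Neither was detected, and none of these members was called in any of the 6 comparisons.

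The table of log2 values that the authors deposited lists 166 miRNAs, 39 of them members. Of these 39, 36 were detected on no array by the 50% rule, while 4 of the 7 detected members (miR-738, miR-2184, miR-2188-5p and miR-2189) are not in it. Of its 16 columns, 14 held a scan that is titled as another sample than their heading names, 12 of these as another group. Every comparison here groups the arrays by the scan titles, and which of the 2 labellings is right cannot be told from the data. By the headings each group would fill 1 row of a slide, with both FLX groups on slide 2. FLX and slide could then not be told apart. The balance of groups over slides and the differences within slides given above hold only by the scan titles. The values of that table are also on another scale than the RMA values, with column medians of -13.82 to -12.73 log2 units. Results from it thus differ from the RMA results in measure as well as in labels. By the headings of the table the log2 difference of miR-456 in Fed/FLX against Fed was 0.02 (limma adjusted p = 0.966). For miR-456 in Fasted/FLX it was -0.11 against Fed (adjusted p = 0.843) and -0.25 against Fasted (adjusted p = 0.495). For miR-2190 it was -0.34 in Fed/FLX against Fed (limma adjusted p = 0.263). In Fasted/FLX miR-2190 was at -0.24 against Fed (adjusted p = 0.605) and 0.17 against Fasted (adjusted p = 0.592). None of these was called by the headings. The table was used only as an alternative.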

How the data were processed

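The authors deposited the scanner software's output (Agilent Feature Extraction 11.0.1.1) for each array, with a background-subtracted intensity per spot that was not normalized between arrays, and a total gene signal per miRNA (intensity, 0.1 where not detected). They also deposited a table of log2 values of 166 miRNAs, by the submitters' headings. The methods name RMA in GeneSpring without settings. RMA values were computed here with limma 3.58.1 on R 4.3.3 by normal-exponential background correction (rma75) of all spots, removal of control and outlier spots, quantile normalization, log2 and median polish (at most 20 iterations). All 248 miRNAs were fitted (lmFit, eBayes, 1 mean per group over 16 arrays), with no filter on low signal. The steps were tested on simulated data, with changes larger than those reported here and only in miRNAs detected on all 16 arrays. Changes of the size reported here and miRNAs near the limit of detection were not covered by that test. Figures were drawn with matplotlib 3.10.9 on Python 3.11.15. The members and lists were chosen with earlier results of these data known.

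Named are members detected on at least 1 array or called, dre-miR-122, and the 2 miRNAs most like each detected member by Pearson's r. Names and hosts came from a RefSeq table of another assembly, so no coordinates are given. Alternatives were 75th percentile scaling over detected or all miRNAs, total gene signal (floor 1), an offset of 50, the mean over spots, outlier spots kept, only detected miRNAs, slide or replicate block, each array left out, 2 groups alone, the authors' table, 2-fold, unadjusted p, the methods' ANOVA with Tukey's test, and detection at 25% or 75% of spots or by the software's mark. Same-numbered arrays of Fasted and Fed deviated weakly together from their group means (r = 0.193, 0.265, 0.204 and 0.113). All 4 values passed a set limit of 0.1, which held for no other 2 groups. The fish of these groups came from different tanks, so this is no pairing of fish by design. By the scan titles, same-numbered arrays of Fasted and Fed shared slide and slide column, as did those of Fasted/FLX and Fed/FLX. The part of slide position in these values was not tested. Replicate number was used as a block only as an alternative. Signal over background stands for depth, and precision is limited by having 4 arrays a group.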

Additional observations from a re-analysis of the deposited data

Results flagged for a closer look

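Dixon's test was applied to 32 groups of 4 arrays, where chance flags about 1 in 20. It marked miR-2188-5p in Fasted replicate 1 (6.24 log2 units, against 5.23 to 5.27 on the other Fasted arrays) and miR-739_v12.0 in Fed/FLX replicate 1 (12.32, against 11.67 to 11.69). On the latter array the unscaled signal of miR-739_v12.0 exceeded that of miR-122, as it also did by little on Fed replicates 1 and 2. Values after quantile normalization depend on rank, so the 12.32 need not measure its amount alone. Dixon's test also marked miR-456 in Fed/FLX replicate 3 (4.75, against 4.88 to 4.89) and in Fasted replicate 2 (4.54, against 4.29 to 4.33), both of which stayed on their own side of the gap between FLX and other arrays. The number of members detected on Fasted/FLX replicate 1 was 4, against 6 on each of the other Fasted/FLX arrays. The scanner software marked miR-733 as detected on 1 Fed/FLX array and on 0 Fed arrays, where 1.67% of its spots were well above background.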

How the results depend on the processing

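In Fasted against Fed the members called were 0, and 21 under 75th percentile scaling over detected miRNAs, where 0 of all 248 miRNAs were called higher and 78 lower. For the authors' table no count is given there, since 36 of the 39 members in it were detected on no array. Without adjustment the members called were 4, where 11.7% of all miRNAs were called. In Fasted/FLX against Fed they were 2, and 38 and 35 under 75th percentile scaling over detected and over all miRNAs, of which 1 was higher in each. Of all 248 miRNAs, 8 were called higher and 133 lower under the first, and 24 higher and 108 lower under the second. These scalings moved the median of all miRNAs by -0.50 and -0.35 log2 units there and by -0.39 in Fasted against Fed, while the medians of miRNAs detected on all arrays were 0.13, 0.28 and -0.02, and most members called were below background. In Fed/FLX against Fed the count of 2 became 1 with the offset of 50, with total gene signal and with 2 groups alone. There the call on miR-2188-3p was lost. Over all 248 miRNAs the main fit called 22 higher and 10 lower. The offset gave 20 and 10, and total gene signal 5 and 1, while the share with 2 groups alone is not given. Unadjusted, the count of members was 6, where 23.4% of all were called. Between Fasted/FLX and Fed/FLX it was 1 under scaling over detected miRNAs, where 3 of all 248 were called higher and 4 lower. Unadjusted, 4 members were called in each of the 3 comparisons of Fasted/FLX and 5 in the interaction. The shares of all miRNAs were 16.1% against Fed, 16.9% against Fasted, 11.7% against Fed/FLX and 12.9% in the interaction. Requiring 2-fold, and the methods' Tukey test with 2-fold, gave 0 in all pairwise comparisons. The authors' table gave 0 in each comparison of an FLX group with Fed or Fasted. The same 36 undetected members enter these counts of 0, so they are not read as a result. The count of that table in the interaction is left out for the reason given above. The headings of that table and the scan titles disagree, and its values are on another scale than the RMA values.

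The call on miR-456 in Fasted/FLX against Fasted was lost under scaling over detected miRNAs (0.42, adjusted p = 0.052) and, apart from the authors' table and the 2 settings with a minimum of 2-fold, under no other setting. With each array of the compared groups left out the counts ran from 1 to 3 in Fed/FLX against Fed and in Fasted/FLX against Fasted, from 0 to 1 in Fasted/FLX against Fed/FLX, and stayed at 2 in Fasted/FLX against Fed and 0 in the others. With the replicate number or the slide as a block, the counts were unchanged at 0 in Fasted against Fed and 2 in each comparison of an FLX group with Fed or Fasted. Shares of all 248 miRNAs called in these refits are not given, so the counts are not read as a result about the members. In the main fits the shares were 12.9% in Fed/FLX against Fed and 6.45% in Fasted/FLX against Fasted. They were 4.84% in Fasted/FLX against Fed and 1.61% in Fasted/FLX against Fed/FLX.

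The difference in members detected per array moved with the limit. In Fasted against Fed it was 0.75, and -0.25 at 25% of spots and -0.5 by the software's mark. In Fed/FLX against Fed it was -0.25, and 0.25 at 75% and 0 by the mark. In Fasted/FLX against Fed it was 0.75, and 0 by the mark. Between Fasted/FLX and Fasted it was 0, and 0.5 at 25%, -0.25 at 75% and 0.5 by the mark. Between Fasted/FLX and Fed/FLX it was 1, and 0 at 75% and by the mark. With each array left out these ran from 0.17 to 1.2, -0.83 to 0.17, 0.17 to 1.2, -0.17 to 0.5 and 0.83 to 1.5 in the same order, the last at an exact permutation p of 0.0286 without Fasted/FLX replicate 1. That p is unadjusted and comes from leaving out the Fasted/FLX array with the fewest members detected (4, against 6 on each of the others). With all arrays of both groups the exact permutation p was 0.229. As 1 of 2 probes carried miR-456 and miR-2188-5p, 50% of spots lies at the edge for both. Several arrays of miR-2184 lay close to this limit too.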
